A study of Homo sapiens with 6 samples.

Results

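A group of 192 autosomal genes was set apart in a single library of the series, the third control replicate of HEK293 cells. The genes were selected on their counts: counts were scaled to each library's total (CPM, per 1000000 counts), 0.02 CPM was added, and a gene was retained when control replicate 3 lay at least 4-fold above the highest, or at least 4-fold below the lowest, of the other 5 libraries. Of the 20181 autosomal genes whose mean over the 6 libraries was 10 counts or more, 130 (0.644%) met the first condition and are termed the higher set, and 62 (0.307%) met the second and are termed the lower set. Because these levels chose the genes, the distance of control replicate 3 from the other libraries is given below as a description, without a test.

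RNA was sequenced from 3 control libraries and 3 FAM60A-knockout libraries. HEK293 is an adherent human embryonic kidney line, and every sample label also names HEK293T, its derivative with the SV40 large T antigen. Knockout cells had been transfected with Cas9 and guide RNAs against 3 regions of FAM60A and were selected with puromycin as a pool rather than as a clone, whereas the labels give the control cells no agent beyond the word control. All cells were grown in DMEM with fetal bovine serum and Glutamax. Nothing in the labels states that the 3 libraries of a group came from separate cultures, so p-values measure the spread between these libraries, which may be technical.

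Total counts ranged from 88361827 to 93346824 per library, control replicate 3 holding the largest total, so depth was nearly even. FAM60A itself, listed under its current symbol SINHCAF (ENSG00000139146), had 11028, 10165 and 12792 counts in control and 5684, 5793 and 5449 in knockout cells. Control replicate 3 thus stood with the controls for the targeted gene. When the same selection was applied to each library in turn, control replicates 1 and 2 gave 2 and 4 genes, all lower, and knockout replicates 1, 2 and 3 gave 2, 0 and 2, also lower. All 12 markers of HEK293 cells on the list used here were detected, with a summed level of 208 to 271 CPM in the other libraries and 374 CPM in control replicate 3. Summed blood cell markers stood at 6.11 CPM in control replicate 3 and 3.19 to 3.74 CPM elsewhere, with 5 of 15, among them CD3E, MS4A1, HBB and HBG1, at 3 counts or fewer in every library. Hepatocyte markers summed to 1.31 CPM in control replicate 3 and 0.39 to 0.87 CPM elsewhere. Endothelial and fibroblast markers summed to 3.44 and 41.4 CPM in control replicate 3 against 1.86 to 4.41 and 33.6 to 37.4 CPM elsewhere. Epithelial and keratinocyte markers summed to 1418, 1470 and 1002 CPM in control and 958 to 1042 CPM in knockout cells. The part of these markers in the results was not tested. In bulk RNA a smaller number of expressing cells and less RNA per cell cannot be told apart.

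FAM60A is a subunit of the Sin3/HDAC corepressor complex, which removes acetyl groups from histones. The genes of the lower set include many that cells switch on within hours of a stimulus. Chemokines such as CXCL8 and CCL20 recruit leukocytes and are classical targets of NF-kB and AP-1, transcription factors that bind close to the transcription start. Immediate early genes such as EGR1 and feedback inhibitors such as SPRY4 follow growth factor signalling through the ERK kinases, and HSPA1A encodes an inducible HSP70 chaperone. The higher set includes a kainate receptor subunit and potassium channels, known from neurons, and the secreted factors GDF15, FGF21 and INHBE, which are induced in the integrated stress response.

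Promoters of some lower-set genes are shown because a TATA box, the sequence that positions RNA polymerase II, recurred in the set at one distance from the start. Most windows of the set lack it. Sequences are from RefSeq (GRCh38.p14), cover the 150 bases before the annotated start, and run 5′ to 3′ along the gene. Capitals mark TATAAA, the AP-1 letters TGANTCA and the NF-kB letters GGAATTTCC. The windows lie at chr4:73740419-73740568 (plus strand) for CXCL8, chr2:227813692-227813841 (plus) for CCL20, chr11:102780629-102780778 (minus) for MMP10, chr1:169734080-169734229 (minus) for SELE, chr1:186680424-186680573 (minus) for PTGS2, chr6:31815393-31815542 (plus) for HSPA1A and chr1:7940840-7940989 (minus) for TNFRSF9, the last of which has no TATAAA and is shown for contrast.
CXCL8: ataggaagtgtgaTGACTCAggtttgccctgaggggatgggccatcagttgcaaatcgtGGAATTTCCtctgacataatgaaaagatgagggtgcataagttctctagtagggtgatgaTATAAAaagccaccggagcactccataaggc
CCL20: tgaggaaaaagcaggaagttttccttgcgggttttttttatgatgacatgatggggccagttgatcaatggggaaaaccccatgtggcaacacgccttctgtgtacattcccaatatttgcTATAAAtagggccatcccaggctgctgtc
MMP10: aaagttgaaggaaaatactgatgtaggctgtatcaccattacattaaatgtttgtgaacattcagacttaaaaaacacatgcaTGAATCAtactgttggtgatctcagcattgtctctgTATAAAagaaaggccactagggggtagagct
SELE: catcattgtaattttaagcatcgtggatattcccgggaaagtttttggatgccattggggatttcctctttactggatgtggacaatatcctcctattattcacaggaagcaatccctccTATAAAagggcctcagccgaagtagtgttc
PTGS2: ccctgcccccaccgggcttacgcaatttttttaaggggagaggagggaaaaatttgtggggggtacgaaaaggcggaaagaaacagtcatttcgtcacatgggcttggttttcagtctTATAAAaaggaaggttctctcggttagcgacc
HSPA1A: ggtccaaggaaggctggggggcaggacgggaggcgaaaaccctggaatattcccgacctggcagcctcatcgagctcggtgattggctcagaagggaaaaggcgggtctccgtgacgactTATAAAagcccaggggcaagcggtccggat
TNFRSF9: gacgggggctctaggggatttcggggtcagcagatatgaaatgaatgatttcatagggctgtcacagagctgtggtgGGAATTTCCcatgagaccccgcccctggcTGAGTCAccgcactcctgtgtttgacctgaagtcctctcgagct

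The first base of TATAAA lay 31 bases before the start in CXCL8 and MMP10, 30 in SELE and HSPA1A, 29 in CCL20 and 32 in PTGS2. CXCL8 also carried the AP-1 letters 137 bases and GGAATTTCC 91 bases before its start. In MMP10, which encodes the protease stromelysin-2, the AP-1 letters lay at 67 bases. TNFRSF9, the costimulatory receptor 4-1BB, had them at 44 and GGAATTTCC at 73 bases.

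Windows of 300 bases (250 before and 50 after the start) could be matched by symbol and chromosome for 88 genes of the higher set, 39 of the lower set and 12740 genes in all. As a gene can have several starts, these gave 131, 54 and 18300 windows. TATAAA, on either strand, occurred in 31.5% of lower-set windows, 6.11% of higher-set windows and 7.05% of all windows. At 25 to 35 bases before the start it was found in 20.4%, 3.05% and 2.23% of them, respectively. The bin of 25 to 49 bases held the most matches in all windows (2.33%) and in higher-set windows (3.05%) as well. Median GC content of the windows was 52.7% in the lower set, 65% in the higher set and 64.3% over all. The part of GC content in the TATAAA shares was not tested. The AP-1 letters occurred in 14.8% of lower-set, 5.34% of higher-set and 5.43% of all windows. GGAATTTCC was found in 3.7%, 0% and 0.454%. A looser NF-kB pattern, GGGA and CC with 4 free bases between them, which includes GGAATTTCC where a further G precedes it, was at 27.8%, 35.1% and 30.8%.

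**Figure D1:**
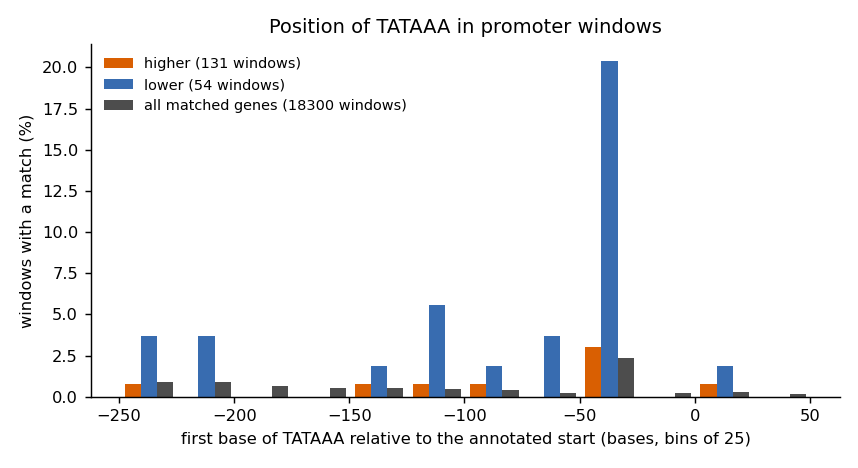
Share of promoter windows (percent, vertical axis) with TATAAA on either strand in bins of 25 bases along the window (horizontal axis, bases relative to the annotated start, negative before it), for higher-set genes, lower-set genes and all matched genes. The bin 25 to 49 bases before the start holds a match in 20.4% of the 54 lower-set windows and 2.33% of all windows.

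Of the other letters searched, both parts of the REST-binding element, TTCAGCACC and GGACAGCGC, occurred in 1.53% and 0.763% of higher-set windows, 0% and 0% of lower-set windows, and 0.29% and 0.781% of all windows. The heat shock pattern (GAA, TTC and GAA, each 2 free bases apart) and the ETS letters ACCGGAAGT had no match in either set, and TGACGTCA, TGATGNAA and CACGTG were at 0.763%, 3.05% and 6.11% of higher-set and 0%, 1.85% and 7.41% of lower-set windows, against 2.68%, 2.1% and 8.91% of all. These 11 letter patterns were chosen after the members were known, windows of the same gene overlap, and a match describes letters rather than a bound site.

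In the higher set, control replicate 3 exceeded the nearest other library by a median of 5.09-fold, and 21 of 130 genes exceeded it by more than 8-fold. Summed over the set, the level was 1217 CPM in control replicate 3, against 111 and 113 CPM in the other controls and 173, 184 and 182 CPM in knockout cells. Protein-coding genes made up 118 of the 130 (90.8%, against 71.6% of all genes evaluated), the others being 7 long non-coding RNAs and 5 pseudogenes. By role, assigned by hand after the members were known, 17 belonged to synaptic and neuronal signalling, 12 were ion channels or transmitter receptors, 12 secreted ligands, hormones or their receptors, and 12 enzymes or transporters of metabolism. A further 10 were transcription, chromatin or RNA regulators, 8 acted in guidance, adhesion and migration, 5 were matrix proteins or mucins, 5 immune genes, 37 other protein-coding genes and 12 non-coding genes or pseudogenes.

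The widest gap was that of MUC16 (chr19:8959520-9121066 on GRCh37), the cell surface mucin that carries the CA125 antigen. It had 1, 3 and 832 counts in control and 10, 22 and 9 in knockout cells. GRIK3, a kainate receptor subunit, had 4, 7 and 494 counts in control and 22, 26 and 19 in knockout cells. Control replicate 3 lay 34.2-fold and 17.4-fold above the nearest library, and in both genes the knockout libraries lay above the first pair of controls without overlap. TSPY26P, a processed pseudogene on chromosome 20, had 52, 58 and 1052 counts against 48, 55 and 50, and reads of such copies may come from related genes.

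Members with many reads showed the same separation with small spread among the other libraries. REC8, a cohesin subunit of meiosis, had 192, 212 and 3983 counts in control and 191, 263 and 271 in knockout cells. CRMP1, a collapsin response mediator of growing axons, had 434, 481 and 5911 against 471, 498 and 598. For SERPINF1, the secreted factor PEDF, they were 580, 513 and 5002 against 501, 426 and 541. In these 3 genes the knockout libraries overlapped or lay close to control replicates 1 and 2, and control replicate 3 stood 14.2-fold, 9.59-fold and 8.54-fold above its nearest neighbour.

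Some members with roles known from neurons are given next. NOVA2, a splicing regulator of neurons, had 68, 75 and 1471 counts in control and 74, 94 and 110 in knockout cells. NOS1, the neuronal nitric oxide synthase, had 2, 0 and 641 against 46, 56 and 45. CHRNA4, a nicotinic receptor subunit, rested on few reads, with 1, 3 and 85 counts in control and 14, 13 and 4 in knockout cells. The smaller folds of this role were seen in HTR1B, a serotonin receptor (10, 3 and 147 against 27, 33 and 25 counts), and GABRD, a GABA-A receptor subunit (77, 72 and 332 against 27, 35 and 51). GABRD was lower in every knockout library than in any control, and HTR1B higher in every knockout library than in control replicates 1 and 2.

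Among secreted factors, LTBP4 (chr19:41098789-41135723), which binds latent TGF-beta in the matrix, had the most reads of the higher set, with 861, 927 and 23157 counts in control and 3813, 4245 and 4218 in knockout cells. The libraries therefore fell at separate levels without overlap, lowest in control replicates 1 and 2, intermediate in the knockout and highest in control replicate 3. INHBE, the inhibin beta E chain made under stress, had 66, 75 and 2331 against 291, 298 and 323 counts. The WNT antagonist SFRP5 had 57, 83 and 1582 against 205, 224 and 169. Both followed the order of LTBP4, whereas TAFA5, a secreted protein of the brain, had 51, 59 and 940 counts in control and 5, 5 and 6 in knockout cells, the knockout being lowest. RBP4, the carrier of retinol, shared that order with 19, 37 and 437 against 7, 10 and 9 counts.

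**Figure D2:**
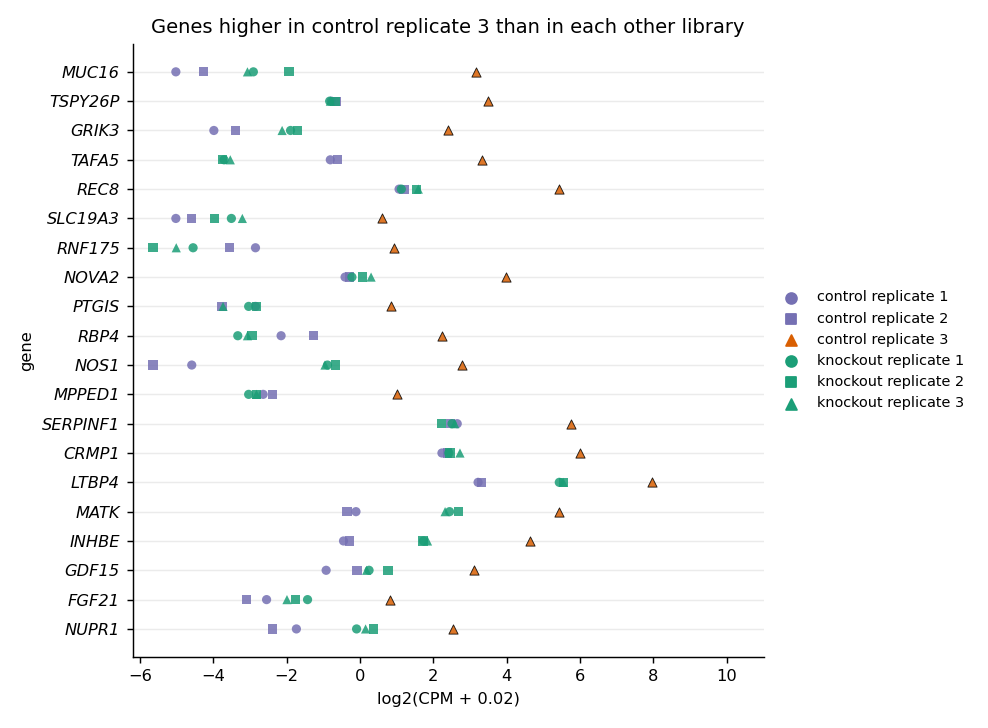
Level of 20 higher-set genes in each library as log2(CPM + 0.02) on the horizontal axis, 1 point per library and 1 gene per row: the 12 widest gaps among genes with a symbol, with 8 further genes of the text. Control replicate 3 is the rightmost point in every row, and the knockout libraries lie right of control replicates 1 and 2 for LTBP4, MATK and INHBE, and left of them for TAFA5.

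In the lower set, control replicate 3 lay below the nearest other library by a median of 5.77-fold with 0.02 CPM added, or 5.59-fold with the 8 genes at 0 counts placed at a floor of 3 counts. It held 3 counts or fewer for 21 of the 62 genes. At that floor CCL7 (2.34-fold) and the pseudogene RPS10P5 (3.67-fold) would lie under 4-fold. For genes above 0 but at 3 counts or fewer, the 95% exact interval of counting error began above 4-fold only for CXCL8, MMP12 and MMP10. For the others it began lower, as for SERPINB2 (2.09) and PENK (1.99), so their membership lies within counting error. The summed level was 83.7 CPM in control replicate 3, against 682 and 722 CPM in the other controls and 1134, 1339 and 1206 CPM in knockout cells. HSPA1A alone supplied 52.7 CPM in control replicate 3, 259 and 298 CPM in the other controls and 639, 842 and 710 CPM in knockout cells. The mean CPM in knockout was above that of control replicates 1 and 2 for 28 genes and below it for 34. By role, again assigned by hand, 9 genes were cytokines, chemokines or leukocyte surface proteins, 7 inflammatory or innate immune proteins, 7 neuronal receptors, peptides or transporters, and 5 belonged to the growth factor response. The first of these roles also took in the endothelial selectin SELE. The remaining groups were 4 matrix proteases or matrix proteins, 4 protocadherins or ephrin receptors, 2 heat shock proteins, 2 WNT inhibitors, 2 developmental transcription factors, 2 glycosyltransferases, 6 other protein-coding genes and 12 non-coding genes or pseudogenes.

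CXCL8 (chr4:74606236-74609433 on GRCh37), the neutrophil chemokine interleukin-8, had 462 and 523 counts in the first pair of controls, 2 counts in control replicate 3, and 1396, 1306 and 1527 in knockout cells. The nearest library, control replicate 1, exceeded control replicate 3 by 232-fold in CPM (95% exact interval of counting error 64.0 to 1926). CCL20, the ligand of CCR6, followed the same order with 184, 168 and 5 counts in control and 1552, 1464 and 1434 in knockout cells. TNF, the tumour necrosis factor, had 38, 44 and 5 against 569, 611 and 578. The endothelial selectin SELE and the early activation antigen CD69 were at 0 counts in control replicate 3. They held 18 and 21 (SELE) or 20 and 24 (CD69) counts in the other controls, and 84 to 98 or 145 to 160 counts in the knockout. Against a floor of 3 counts in that library, control replicate 3 was at least 6.04-fold lower for SELE and 6.71-fold lower for CD69 than the nearest library.

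A different order was seen in other inflammatory genes, the knockout lying between control replicate 3 and the other controls. SP100, a nuclear body protein induced by interferon, had 1760, 1779 and 7 counts in control and 133, 159 and 113 in knockout cells. SERPINB2, the plasminogen activator inhibitor PAI-2, had 319, 274 and 3 against 20, 21 and 35. MMP10 had 188, 204 and 2 against 40, 42 and 39. PTGS2, the inducible cyclooxygenase COX-2, had 600, 608 and 77 against 449, 464 and 513, so there the knockout was close to control replicates 1 and 2. MMP10, MMP1 and MMP12 lie next to each other, among the genes evaluated, in the matrix metalloprotease cluster on chromosome 11. Control replicate 3 held 2, 1 and 3 counts of them, and MMP1 had no more than 18 counts in any library.

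Genes downstream of growth factor signalling formed a further group. EGR1, a zinc finger factor of the immediate early response, had 4262, 4514 and 336 counts in control and 1649, 2286 and 1902 in knockout cells. SPRY4, a feedback inhibitor of receptor tyrosine kinases, had 1230, 1220 and 61 against 435, 589 and 537. The ETS factor ETV5 had 2835, 2729 and 290 against 1126, 1336 and 1240. All 3 were intermediate in the knockout, whereas IER3, an early response gene linked to apoptosis, was highest there, with 6152, 6123 and 425 counts in control and 11598, 12385 and 11262 in knockout cells.

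The lower-set gene with the most reads was HSPA1A (chr6:31783320-31785723), with 24041, 27787 and 4919 counts in control and 56467, 76889 and 64433 in knockout cells. Its near-identical neighbour HSPA1B, not a member, had 45844, 42819 and 42610 counts in control and 79384, 97938 and 86901 in knockout cells. The gap in control replicate 3 was thus seen in only one of the pair. Reads cannot be firmly assigned between such copies, so the split between them is uncertain. HSPA1L, which lies 259 bases away on the other strand, was also a member, with 391, 398 and 38 counts against 321, 331 and 306. With the strand setting of the counting not given in the sources used here, reads of adjoining genes may be shared.

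Developmental and neural genes completed the set. SLC8A1, the sodium-calcium exchanger, had 111, 98 and 0 counts in control and 811, 724 and 879 in knockout cells. Control replicate 3 was at least 32.7-fold lower than the nearest library. ISL1, a LIM homeobox factor of motor neurons and heart, had 620, 628 and 19 counts against 385, 475 and 439. Its divergent transcript ISL1-DT, 115 bases away, had 162, 164 and 5 against 86, 99 and 80. PLAGL1, an imprinted zinc finger gene, had 3227, 3054 and 226 against 1352, 1635 and 1589. HYMAI, which overlaps it on the same strand, had 19, 16 and 1 against 17, 12 and 16. Reads within the overlap cannot be told apart by strand. Protocadherins moved apart in the knockout: PCDH10 had 260, 237 and 43 counts against 7483, 7415 and 8119, while PCDH17 had 879, 825 and 8 against 131, 143 and 160.

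**Figure D3:**
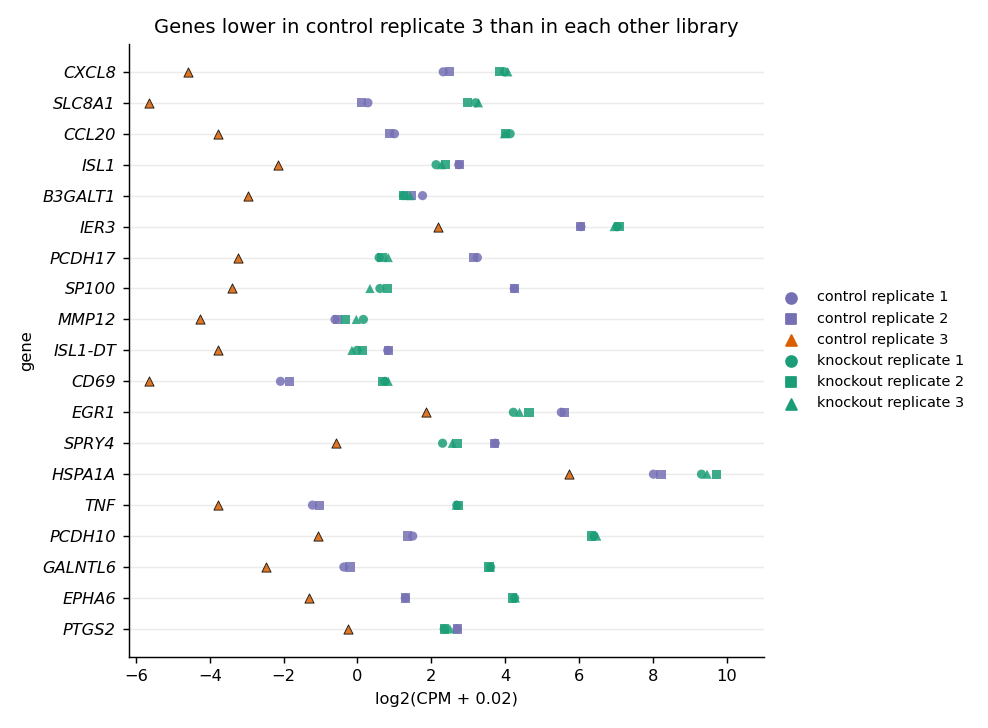
Level of 19 lower-set genes in each library as log2(CPM + 0.02) on the horizontal axis, 1 point per library and 1 gene per row: 11 of the 12 widest gaps, with 8 further genes of the text. Control replicate 3 is the leftmost point in every row; the knockout libraries lie right of control replicates 1 and 2 for CXCL8, CCL20, TNF and PCDH10, and between them and control replicate 3 for PCDH17, SP100, EGR1 and SPRY4.

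At the edge of the selection, ANKRD2 (4.003-fold) and FAM43B (4.01-fold) lay just inside the higher set, and TMEM220 (3.99-fold) and TRIM54 (3.98-fold) just outside. For the lower set, ETV5 (4.08-fold) and CXXC4 (4.09-fold) lay just inside, and FAM50B (3.97-fold) and ZIC1 (3.89-fold) just outside. ZIC1, a neural zinc finger factor, had 107, 52 and 12 counts in control and 116, 133 and 131 in knockout cells.

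Wider gene lists showed how far the members represented their pathways. Over all 20181 genes, control replicate 3 lay above each of the other 5 libraries, by any margin, for 29.5% and below each of them for 21.8%, and its median log2 difference from their mean was 0.07. Of 34 immediate early and growth factor response genes, 4 were in the lower set (EGR1, IER3, SPRY4 and ETV5). Control replicate 3 was the lowest library for 21 of the 34, with a median log2 difference of -0.86. FOSB had 278, 344 and 72 counts in control and 198, 290 and 299 in knockout cells, and DUSP6, a phosphatase of ERK, 1100, 1176 and 245 against 709, 678 and 751. MYC went the other way, with 1900, 2021 and 20015 counts against 9470, 11434 and 9546. Among 15 heat shock genes control replicate 3 was lowest for 9, with a median difference of -0.68.

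Of 35 genes of the integrated stress and unfolded protein response, GDF15, FGF21 and NUPR1 were in the higher set, and control replicate 3 was the highest library for 23, with a median log2 difference of 1.06. NUPR1, a stress-induced chromatin protein, had 26, 16 and 536 counts in control and 81, 116 and 99 in knockout cells. FGF21, a metabolic hormone, had 14, 9 and 164 against 31, 25 and 21, and GDF15, the GFRAL ligand, 47, 86 and 801 against 103, 153 and 101. ASNS, the asparagine synthetase controlled by ATF4, had 149, 142 and 798 against 346, 293 and 407 counts. The chaperone HSPA5, which responds to unfolded protein, had 76628, 74474 and 39337 against 61123, 62614 and 67361, so genes within the list were apart in both directions.

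Voltage-gated ion channels had 3 higher-set members of 52, among them KCNA6 and KCNG1, and control replicate 3 was highest for 32, with a median log2 difference of 0.94. KCNA6 overlaps the member GALNT8, so its reads are uncertain. Neurotransmitter receptors had 4 of 51 (GRIK3, GABRD, HTR1B and CHRNA4), with control replicate 3 highest for 25 and a median of 0.65. Axon guidance genes gave SEMA3F and SLIT3 higher and EPHA6 lower of 63. The WNT pathway gave WNT3A and SFRP5 higher and DKK2 lower of 48, and cadherins gave PCDH10 and PCDH17 lower of 32. TGF-beta and BMP genes gave INHBE and GDF15 higher of 48, extracellular matrix genes LUM lower of 73, homeobox factors ISL1 lower of 77, imprinted genes PLAGL1 and HYMAI lower of 29, interferon-stimulated genes BST2 higher of 37, retinoic acid genes RBP4 higher of 21 and p53 targets GDF15 higher of 28. For the 37 interferon-stimulated genes control replicate 3 was highest for 8 and lowest for 12, with a median of -0.13. SP100 of the lower set, also induced by interferon, was not on that list. No member was found among 10 neuronal and neuroendocrine genes, for which control replicate 3 was highest for 4 and lowest for 3, with a median log2 difference of 0.61. The summed level of all 18 genes of that list was 117 CPM in control replicate 3, 128 and 114 CPM in the other controls and 81.0 to 84.7 CPM in knockout cells. Likewise none was found among 42 genes of mitosis and S phase, 21 subunits of Sin3/HDAC complexes or 34 Hippo genes and YAP targets, whose median log2 differences were -0.03, 0.00 and -0.05. Summed over each list, mitosis and S phase genes stood at 9029, 8831 and 7916 CPM in control and 7061 to 7343 CPM in knockout cells. Sin3/HDAC subunits stood at 2995, 2944 and 2984 against 2653 to 2804 CPM. Hippo genes and YAP targets stood at 1629, 1553 and 1009 against 893 to 945 CPM. In this last sum control replicate 3 lay nearer to the knockout libraries than to the other controls. Gene by gene, it was the highest library for 10 of the 34 and the lowest for 8.

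To ask how the members behaved between genotypes apart from the library that chose them, the knockout libraries were compared with control replicates 1 and 2 alone. The comparison used edgeR's quasi-likelihood test with Benjamini-Hochberg adjustment over 21686 genes, a gene being called at an adjusted p of 0.05 or less with a log2 fold change of 1 or more in either direction. Of all genes tested, 13.1% were called higher and 9.75% lower in knockout. In the higher set 115 of 130 genes had enough reads in these 5 libraries to be tested, the other 15 being left out, and of the 115 34 (29.6%) were called higher and 11 (9.57%) lower. In the lower set all 62 were tested, of which 20 (32.3%) were called higher and 16 (25.8%) lower. The median log2 fold change was 0.43 in the higher set, -0.10 in the lower set and 0.00 over all genes tested. The selection used the highest or lowest of these same 5 libraries, which does not fix a direction between genotypes but bears on which genes could enter, so the shares are set beside the background as descriptions.

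Within the higher set, LTBP4 rose in knockout by a log2 fold change of 2.32 ± 0.09 (SE; adjusted p = 1.71e-15). INHBE rose by 2.23 ± 0.15 (adjusted p = 3.59e-11), SFRP5 by 1.63 ± 0.19 (1.32e-07) and BST2, the interferon-induced tetherin, by 2.10 ± 0.20 (8.4e-09). MATK, a tyrosine kinase that inhibits SRC family kinases, rose from 84 and 71 counts to 478, 582 and 451 (2.82 ± 0.15, 9.51e-13), while control replicate 3 held 4011. TUNAR, a transcript of neural and stem cells, rose by 3.24 ± 0.37 from 6 and 5 counts (1.08e-07). The largest fitted change was that of NOS1, whose 2 and 0 counts in control replicates 1 and 2 were at the floor. Its ratio of summed CPM was 50.5 (95% exact interval of counting error 13.7 to 421), and that of MUC16 was 7.05 (2.55 to 27.1). Of the 12 ion channels and transmitter receptors, 5 were called (GRIK3, CHRNA4, HTR1B, UNC80 and TMIE), each higher. CHRNA4, with 1 and 3 counts in control replicates 1 and 2, lost its call without control replicate 1 (log2 fold change 1.88, adjusted p = 0.0912).

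Falls in the higher set were fewer. TAFA5 fell with a log2 fold change of -3.21 ± 0.34 (adjusted p = 3.6e-08) and RBP4 with -1.56 ± 0.39 (0.00154). RBP4 lost its call without control replicate 2 (-0.96, adjusted p = 0.138). XKR5, a member of the XK-related family, held 29 and 17 counts in control replicates 1 and 2, 175 in control replicate 3 and 2, 3 and 0 in the knockout, a 13.4-fold ratio between the first pair and the knockout (95% exact interval of counting error 5.34 to 43.2). GNAO1, the G protein subunit of neurons, had 306, 296 and 1711 against 75, 125 and 115 counts, and fell with -1.40 ± 0.16 (1.24e-07). Members with many reads such as REC8 (0.38 ± 0.15, 0.0276), CRMP1 (0.31 ± 0.11, 0.0202) and SEMA3F (0.42 ± 0.11, 0.00198) had small differences below the fold threshold, and SERPINF1 was at -0.03 ± 0.11 (0.811).

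Calls in the lower set are given by the roles assigned by hand, without a test between roles. The role of cytokines, chemokines and leukocyte surface proteins, which here took in the endothelial selectin SELE, held 9 genes. Of these, 7 were called higher in knockout, 1 lower (IL7R) and 1 was not called (IL1R1). Among all genes tested, 13.1% were called higher and 9.75% lower. The call of IL7R was lost without control replicate 1 (log2 fold change -0.87, adjusted p = 0.0528). TNF rose by 3.96 ± 0.15 (adjusted p = 2.21e-15), CCL20 by 3.20 ± 0.11 (4.52e-16), CD69 by 2.89 ± 0.21 (1.33e-10), TNFRSF9 by 2.52 ± 0.12 (9.06e-14) and CXCL8 by 1.64 ± 0.10 (8.69e-12). Of the 7 inflammatory and innate immune proteins, 4 were called, each lower. SP100 fell with a log2 fold change of -3.59 ± 0.11 (1.12e-16), SERPINB2 with -3.42 ± 0.19 (2e-12), the inflammatory caspase CASP4 with -2.95 ± 0.18 (4.24e-12), and APOBEC3B, a cytidine deaminase with close paralogs, with -1.75 ± 0.09 (2.38e-13). Of 5 growth factor response genes, EGR1, SPRY4 and ETV5 fell with log2 fold changes of -1.05 ± 0.10 (3.48e-09), -1.11 ± 0.10 (4.96e-09) and -1.05 ± 0.08 (3.08e-10), and IER3 rose by 1.06 ± 0.08 (1.31e-10), these 4 lying close to the fold threshold. On leaving out 1 library, EGR1 went below it without control replicate 2 (-0.97) or knockout replicate 1 (-0.95), and ETV5 without knockout replicate 1 (-0.99), and IER3 did so with library size in place of TMM (0.98).

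The 3 largest changes between genotypes in the lower set (PCDH10, GALNTL6 and TNF) were rises. PCDH10, a delta protocadherin, rose by 5.07 ± 0.10 (adjusted p = 8.77e-20). GALNTL6, a GalNAc-transferase family member, rose by 3.99 ± 0.13 (1.08e-16) from 70 and 79 counts to 1074, 1079 and 1102, with 15 counts in control replicate 3. SLC8A1 rose by 3.07 ± 0.13 (2.1e-14) and the ephrin receptor EPHA6 by 3.04 ± 0.10 (2.34e-16), from 226 and 227 to 1688, 1686 and 1759 counts. The non-coding gene ENSG00000286447, 173 bases from EPHA6 on the other strand, rose by 2.02 ± 0.17 (7.07e-10). PCDH17 fell with -2.43 ± 0.11 (6.43e-14). HSPA1A rose by 1.47 ± 0.11 (1.4e-10) and LUM, the matrix proteoglycan lumican, by 1.75 ± 0.12 (6.07e-11), while ISL1 (-0.40 ± 0.10, 0.00198), B3GALT1 (-0.23 ± 0.13, 0.122) and PTGS2 (-0.22 ± 0.10, 0.0608) were not called.

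**Figure D4:**
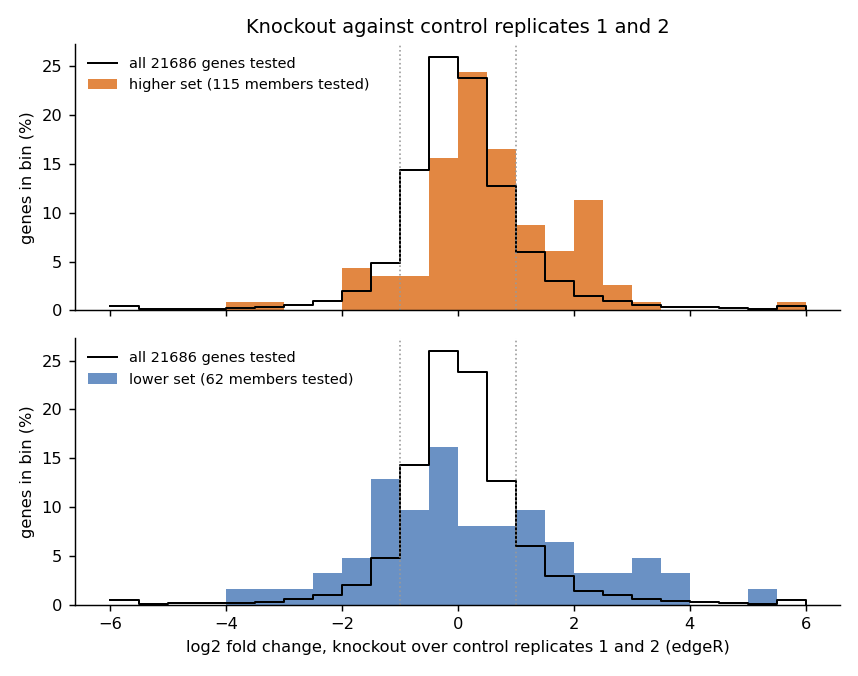
Distribution of log2 fold changes of knockout over control replicates 1 and 2 (horizontal axis, edgeR, bins of 0.5) as percent of genes in each bin (vertical axis) for the higher set (top bars), the lower set (bottom bars) and all 21686 genes tested (black line); dotted lines mark the fold threshold, and values beyond the axis are counted in the end bins. The higher set extends to the right of all genes, with 29.6% called higher against 13.1%, and the lower set extends on both sides, with 32.3% called higher and 25.8% lower.

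In the same comparison, the lists behind these members were counted in full. Of 34 immediate early genes tested, 4 were called higher and 13 lower in knockout, with a median log2 fold change of -0.59. Integrated stress genes gave 7 higher and 1 lower of 35, voltage-gated channels 16 and 7 of 54, neurotransmitter receptors 19 and 8 of 53, cadherins 9 and 16 of 38, the WNT pathway 15 and 5 of 48 and heat shock genes 2 and 3 of 15. TGF-beta and BMP genes gave 15 and 9 of 48, axon guidance 15 and 6 of 63 and extracellular matrix 22 and 13 of 74. Homeobox factors gave 11 and 6 of 77, imprinted genes 2 and 7 of 30 and interferon-stimulated genes 13 and 4 of 37. Retinoic acid genes gave 10 and 4 of 21, p53 targets 1 and 0 of 28 and fibroblast markers 5 and 0 of 9. Over all 21686 genes tested, 13.1% were called higher and 9.75% lower. The lists were not tested against these shares, and some counts, such as the rises among heat shock and immediate early genes, lay near them.

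With all 3 controls in the fit, the library that chose the members was itself one of the controls, so the values below are descriptions, with no test. All 115 higher-set genes were then fitted lower in knockout, a direction that the selection sets and that is therefore no result. Of the 62 lower-set genes 40 were fitted higher, a direction that the selection favours without setting it. Over all 20992 genes tested, 3.34% were called higher and 3.72% lower in knockout. In the higher set 3 of 115 (2.61%) passed the same thresholds as lower, TAFA5, XKR5 and MYT1, and in the lower set 9 of 62 (14.5%) passed as higher, namely PCDH10, GALNTL6, TNF, EPHA6, ENSG00000286447, TNFRSF9, MIR3667HG, CD69 and LUM. PCDH10 had a log2 fold change of 5.57 ± 0.65 and TNF of 4.49 ± 0.70. LTBP4 was at -0.87 ± 1.23, CXCL8 at 2.25 ± 1.25 and SP100 at -2.97 ± 1.42, with standard errors more than 10 times those without control replicate 3. LTBP4 and INHBE (-1.28 ± 1.31) had the opposite sign in the 2 fits. The common dispersion, the squared biological variation shared by all genes, was 0.0854 with control replicate 3 and 0.00473 without it. Without control replicate 3 the calls were 45 and 36, and leaving out one of the other 5 libraries instead gave 0 or 1 call in the higher set and 0 to 3 in the lower set by edgeR.

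The GC content of the longest annotated transcript (GENCODE, GRCh37) had a median of 57.6% in the higher set, 42.4% in the lower set and 48.4% over all genes evaluated. With genes divided by GC content into 10 classes of equal size, the higher set had 0 members in the lowest class and 40 in the highest, and the lower set 11 and 3. Among all genes, the median log2 difference of control replicate 3 from the mean of the other libraries moved from -0.22 in the lowest class to 0.31 in the highest. The part of GC content in the results was not tested. Total exon length had similar medians of 4350 (higher), 4096 (lower) and 4171 bases (all). Mean counts, which the selection used, had medians of 78.5, 180 and 814.

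**Figure D5:**
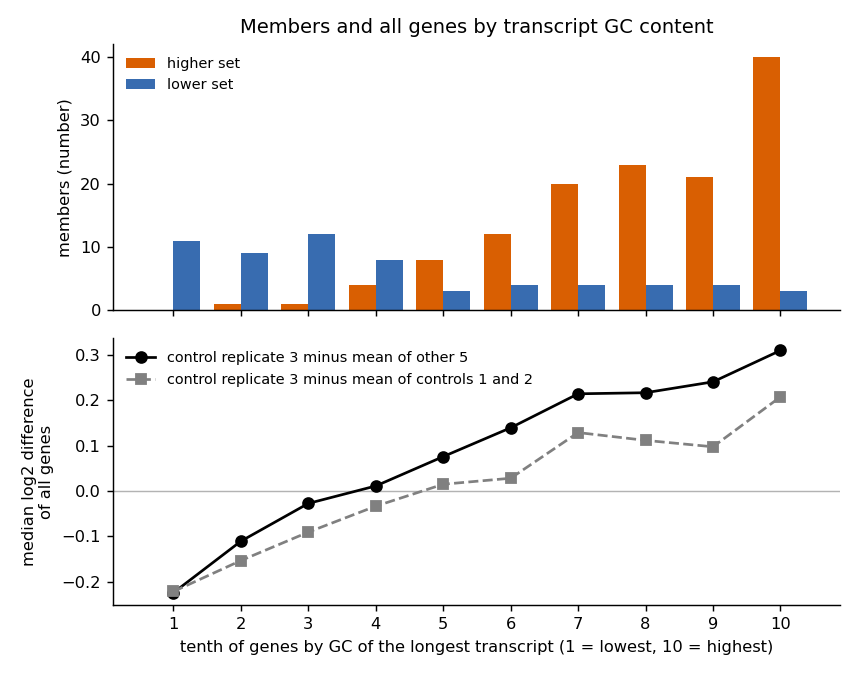
Number of members of each set (top) and median log2 difference of control replicate 3 over all genes (bottom) in 10 equal classes of the 20181 genes by GC content of the longest transcript. The higher set rises from 0 to 40 members across the classes and the lower set is most frequent in the lowest 4, while the median difference from the mean of the other 5 libraries rises from -0.22 to 0.31.

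Members were spread over most autosomes. Chromosome 20 held 11 higher-set members among 536 genes (2.05%), and chromosome 4 held 9 lower-set members among 781 (1.15%). In 12 cases consecutive genes of the evaluated order were both members, 11 of them of the same set. The exception was on chromosome 2, where SLC19A3, a thiamine transporter with 1, 2 and 139 counts in control and 6, 4 and 8 in knockout cells, lay 87710 bases from CCL20 with the opposite deviation in control replicate 3. Among the same-set pairs, PLAGL1 and HYMAI, ENSG00000272647 and TMEM225B, and GALNT8 and KCNA6 overlap on the same strand. ISL1-DT and ISL1, HSPA1L and HSPA1A, and ENSG00000286447 and EPHA6 lie 115 to 259 bases apart on opposite strands. Reads of the overlapping pairs cannot be told apart by strand. With the strand setting of counting not given, reads of the pairs on opposite strands may also be shared.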

How the data were processed

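The authors deposited whole-number read counts per Ensembl gene for 62754 genes, without normalization. The study's methods describe stranded poly(A) libraries quantified with Salmon on hg38, the submitters' processing notes name STAR 2.7.10b and featureCounts 2.0.0, and the labels name hg19; the annotation release and the strand setting of counting are not given in the sources used here. Of the genes, 60878 were matched to GENCODE on GRCh37 for symbol, place and transcript GC content, and 85 genes averaging 10 counts or more were not matched. Promoters were taken from RefSeq (GRCh38.p14).

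Members were found with Python 3.11.15 and pandas 2.3.3. Knockout was compared with all controls and with control replicates 1 and 2 by edgeR 4.0.16 (TMM, filterByExpr with a minimum count of 10, two-sided quasi-likelihood F-test, Benjamini-Hochberg). The fit was also run on simulated counts, which held no library set apart like control replicate 3 and so do not cover that setting. The SE is the log2 fold change divided by the square root of F. Intervals and floors of 3 counts cover counting error only. Alternatives were DESeq2 1.42.0, limma-voom 3.58.1, library size without TMM, no filter, a replicate block, no fold threshold, omission of each library and other settings of the selection.

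The members and lists were chosen with earlier results of these data known. Genes named by rule were, per set, the 12 widest gaps, the 3 highest mean counts, members of the lists, the 2 nearest the threshold on each side and the 3 largest fitted changes among calls without control replicate 3. Members named beyond this were picked with their values in view. Some results are not reported here.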

Additional observations from a re-analysis of the deposited data

How the results depend on the processing

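Set sizes depended on the selection. The higher set of 130 genes held 41 with 0.5 CPM added, 77 at a mean of at least 50 counts, 285 at 3-fold and 21 at 8-fold, and the lower set of 62 held 16, 46, 101 and 19. TMM-scaled library sizes gave 110 and 65 genes and all chromosomes 139 and 65. Leaving out 1 of the other 5 libraries gave 138 to 147 and 63 to 67.

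In the comparison without control replicate 3, the 45 and 36 calls became 70 and 50 with no fold threshold. They ranged from 42 to 47 and from 34 to 36 under DESeq2, limma-voom, library size, no filter and the replicate block, and from 39 to 48 and 33 to 36 on leaving out 1 library. With the replicate number as a block they were 47 and 35, of which 43 and 35 were shared with the main calls. Deviations of same-numbered libraries from their group means correlated at 0.00, 0.04 and -0.03. Control replicate 3 enters the mean of the controls, so these values cannot settle whether the numbers pair the libraries. The main fits did not pair them. With all controls, the 3 and 9 calls became 19 and 15 with DESeq2, 0 and 10 with limma-voom, 0 and 2 with the replicate block, and ranged from 0 to 45 and 0 to 36 on leaving out 1 library, the highest being without control replicate 3; the cause of the other differences was not tested.

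Of 56 genes named by rule and tested, log2 fold changes close to 0 changed sign in 7 (14 of 555 values). These were KCNG1 (-0.043), SLIT3 (-0.0438) and TSPY26P (-0.0646) with library size, SLIT3 (-0.0112) with the replicate block, and 6 genes on leaving out 1 library, where values ran from -0.0279 (without control replicate 2) to 0.45 (without control replicate 1) for KCNA6, -0.24 (without control replicate 2) to 0.86 (without control replicate 1) for PTGIS, -0.0867 (without knockout replicate 3) to 0.0731 (without control replicate 1) for SERPINF1, -0.30 (without control replicate 2) to 0.55 (without control replicate 1) for SLIT3, -0.0452 (without control replicate 1) to 0.13 (without control replicate 2) for TSPY26P and -0.20 (without knockout replicate 1) to 0.0526 (without knockout replicate 2) for HYMAI. A further 7 values fell below the calling threshold, in CHRNA4, FGF21, RBP4, EGR1, ETV5 and IER3, and 7 rose past it, in GABRD and GDF15.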
